A study of Mus musculus with 4 samples.

Results

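A total of 579 accessible chromatin regions (peaks) lay at microRNA genes in stem cells sorted from mouse hair follicles. They were found by position alone. A peak was taken when it shared at least 1 base with a RefSeq gene whose symbol is Mir followed by a digit, or Mirlet7, extended by 5 kb on either side, on chromosomes 1 to 19, and host genes with symbols ending in hg were left out. They made up 0.804% of the 72012 autosomal peaks and belong to a list of 74777 peaks in all. The regions were mapped by ATAC-seq, in which the Tn5 transposase cuts accessible DNA and inserts sequencing adapters. The back skin was that of females on postnatal day 30, and the sort kept cells that were H2BGFP+, Sca-1-, CD34+ and CD49f+. The control was K14-H2BGFP, Foxc1 fl/fl, and the knockout was K14-H2BGFP, K14Cre, Foxc1 fl/fl, so both groups carry the floxed alleles and the reporter. The Krt14 promoter, which is active in basal keratinocytes throughout the skin epithelium, drives both the reporter and the Cre recombinase, so loss of the forkhead factor Foxc1 is not limited to the sorted cells.

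Each genotype was 1 library, sequenced in 2 runs. All 4 runs share 1 list of coordinates that names no genotype and holds no score or read count. Knockout and control therefore cannot be told apart in any value given here, there is no replicate, and the depth is unknown. The absence of a peak means that no region was listed there, not that the DNA was closed. As a check of the label, 11 of 12 marker genes of bulge stem cells and basal keratinocytes had a peak within 1 kb of a gene end, beside 58.9% of all autosomal protein-coding genes. They included Krt5, Krt14, Krt15, Cd34, Itga6, Sox9 and Lhx2. Trp63 had none within 1 kb of its outer bounds, and starts inside a gene were not part of this check. Among 8 marker genes of other skin cells, Mlana, Dct and Col1a1 had such a peak and Ptprc, Cd3e, Pecam1, Cdh5 and Pdgfra had none. Both sets of marker genes were chosen after the data were seen, so their counts are descriptions and not a test of the label.

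MicroRNAs are short RNAs that bind messenger RNAs and lower their translation and stability. Most are cut from a hairpin in a longer primary transcript, first by Drosha in the nucleus and then by Dicer in the cytoplasm. The seed, bases 2 to 8 of the mature strand, largely sets which messages a microRNA binds. The hairpin often lies in an intron or far from the start of its primary transcript. In such cases open chromatin at the hairpin and open chromatin at the promoter are separate measurements. In skin, miR-203 is known for promoting the exit of keratinocytes from the stem cell state, miR-205 and miR-125b for roles in hair follicle stem cells, and the miR-200 family for repressing Zeb1 and Zeb2 and so maintaining epithelial identity.

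The mature strands below belong to the microRNA genes that the results turn on. They were taken from RefSeq with the GRCm38.p6 table, and capitals mark the seed.
miR-203-3p: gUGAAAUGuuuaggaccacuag
miR-205-5p: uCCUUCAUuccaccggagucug
miR-200b-3p: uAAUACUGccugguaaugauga
miR-200c-3p: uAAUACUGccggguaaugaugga
miR-429-3p: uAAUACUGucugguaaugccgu
miR-200a-3p: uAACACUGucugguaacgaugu
miR-141-3p: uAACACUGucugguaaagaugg
miR-125b-5p: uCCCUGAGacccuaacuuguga
miR-99a-5p: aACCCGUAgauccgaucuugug
miR-100-5p: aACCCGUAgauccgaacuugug
miR-24-3p: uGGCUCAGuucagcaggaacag
miR-31-5p: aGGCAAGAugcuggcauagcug
miR-22-3p: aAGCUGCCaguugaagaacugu
miR-21a-5p: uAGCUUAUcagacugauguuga
miR-29a-3p: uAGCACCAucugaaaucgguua
let-7i-5p: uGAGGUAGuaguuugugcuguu
let-7e-5p: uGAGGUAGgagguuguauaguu
let-7c-5p: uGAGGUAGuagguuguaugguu
let-7g-5p: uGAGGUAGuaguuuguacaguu

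These strands fall into groups by seed. miR-200b, miR-200c and miR-429 share AAUACUG, and miR-200a and miR-141 share AACACUG, although the 5 genes lie at 2 loci on different chromosomes. The let-7 strands shown share GAGGUAG. Strands of miR-99a and miR-100 differ outside the seed and have the same seed, ACCCGUA, but their loci differed in listed peaks, as described further on.

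The hairpins of Mir203 and Mirlet7i both lay under a peak and stand here for the 106 that did. Capitals mark the 2 mature arms.
Mir203 hairpin: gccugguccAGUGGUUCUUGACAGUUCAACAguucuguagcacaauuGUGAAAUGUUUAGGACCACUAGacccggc
Mirlet7i hairpin: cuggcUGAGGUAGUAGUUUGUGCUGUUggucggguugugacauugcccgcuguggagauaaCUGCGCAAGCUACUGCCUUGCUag

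Windows around the annotated start of 3 non-coding host genes are shown because a peak at a listed microRNA locus covered them. They run from 250 bases before the start to 50 bases after it, on the strand of transcription, and capitals mark the first 50 transcribed bases. They are Mir205hg at chr1:193510161-193510460 (minus strand), Gm13648 at chr4:156059753-156060052 (minus strand), which holds Mir200a, Mir200b and Mir429, and Mirc35hg at chr6:30174076-30174375 (minus strand), which holds Mir96, Mir182 and Mir183. All are GRCm38 coordinates, which are those of mm10.
Mir205hg start: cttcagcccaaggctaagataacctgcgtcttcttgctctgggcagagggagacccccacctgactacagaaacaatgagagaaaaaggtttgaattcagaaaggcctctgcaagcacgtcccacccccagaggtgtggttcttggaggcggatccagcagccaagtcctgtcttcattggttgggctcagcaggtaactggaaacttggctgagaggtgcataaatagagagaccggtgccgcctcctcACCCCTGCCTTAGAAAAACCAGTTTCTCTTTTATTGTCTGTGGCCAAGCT
Gm13648 start: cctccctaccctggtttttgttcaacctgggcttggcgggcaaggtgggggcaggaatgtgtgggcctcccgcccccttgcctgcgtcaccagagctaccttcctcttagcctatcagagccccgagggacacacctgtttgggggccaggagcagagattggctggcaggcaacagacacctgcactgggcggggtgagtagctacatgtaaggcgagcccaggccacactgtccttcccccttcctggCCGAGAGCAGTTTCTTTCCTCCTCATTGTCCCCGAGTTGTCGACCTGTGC
Mirc35hg start: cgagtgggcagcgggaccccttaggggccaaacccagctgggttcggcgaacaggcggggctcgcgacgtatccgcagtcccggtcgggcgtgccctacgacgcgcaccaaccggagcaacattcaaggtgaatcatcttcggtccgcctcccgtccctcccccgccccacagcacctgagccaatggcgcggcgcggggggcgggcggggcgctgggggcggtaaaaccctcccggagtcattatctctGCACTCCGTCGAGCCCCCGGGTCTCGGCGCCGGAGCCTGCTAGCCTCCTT

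Accessible regions lay near a minority of microRNA genes. Of the 1090 autosomal microRNA genes, 428 had a peak within 5 kb (39.3%, Wilson 95% interval 36.41 to 42.2%), and 106 had a peak over the hairpin itself (9.72%). The intervals cover counting error only. Joined into loci where gaps were under 10 kb, 376 of 858 loci had a peak within 5 kb (43.8%). A single peak was found for 273 genes, 2 peaks for 109, 3 for 29, 4 for 14 and 5 for 3, and 662 had none. The nearest peak lay a median of 8331.5 bp away, with quartiles of 1990.5 and 24268.75 bp. The 5 kb limit fell in no gap of the data: 15 genes had their nearest peak within the last 500 bp inside the limit and 19 within the first 500 bp outside it, with Mir184 (4994 bp) just inside and Mir143 (5021 bp) just outside.

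The ground around microRNA genes held more accessible bases than the autosomes as a whole. Peaks covered 6.293% of the merged windows, which reach 5 kb to either side of each gene, and 2.344% of the autosomes. Without the 2 widest member peaks the first value was 6.161%. Coverage by distance was highest next to the hairpin, at 10.34% of bases in the 1 kb upstream and 8.056% in the 1 kb downstream over the 937 genes with a strand in the table. From 1 to 2 kb downstream it was 4.761%. The high values came with protein-coding gene ends. Among the 358 oriented genes within 5 kb of such an end, coverage in the 1 kb upstream was 20.66%, against 3.959% among the 579 oriented genes farther away.

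**Figure D1:**
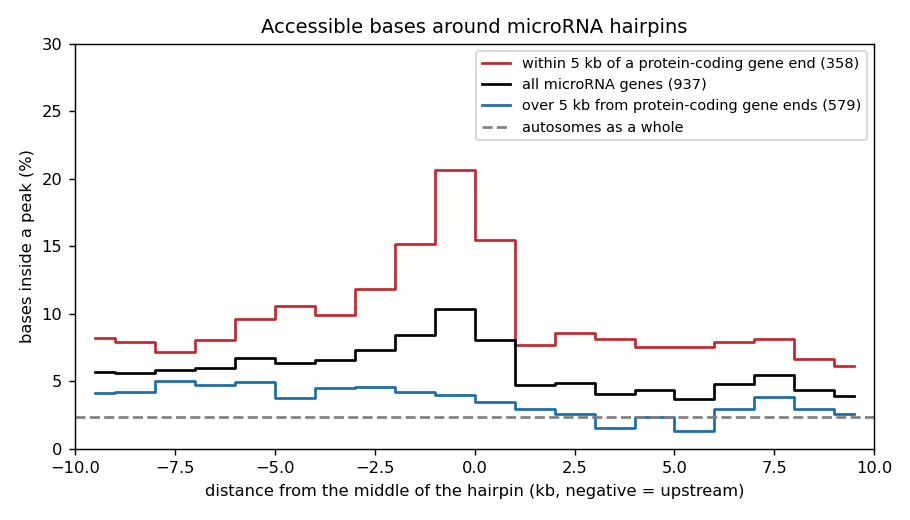
Share of bases inside a peak (%) in 1 kb bins by distance from the middle of the hairpin (kb, negative values upstream), for all oriented microRNA genes (black), those within 5 kb of a protein-coding gene end (red) and those farther away (blue), with the share over the autosomes as a dashed line. The red line reaches 20.66% just upstream of the hairpin and the blue line reaches no more than 5.031% in any bin.

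The same split held for counts of genes. Within 5 kb of a protein-coding end, 254 of 386 microRNA genes had a peak (65.8%), and beyond it 174 of 704 (24.7%). Being inside a gene made less difference: 293 of 752 inside a protein-coding gene (38.96%), 41 of 106 inside a long non-coding gene (38.68%) and 94 of 232 in neither (40.52%) had a peak. Genes numbered under 1000 had a peak in 155 of 461 cases (33.62%) and those numbered 1000 or above in 273 of 629 (43.4%). Of the first, 25.38% lay within 5 kb of a protein-coding end and of the second 42.77%, and near such an end 83 of 117 (70.94%) and 171 of 269 (63.57%) had a peak. Farther away the order was the other way round, with 72 of 344 (20.93%) and 102 of 360 (28.33%). Small nucleolar RNA genes, another class of short genes that often lie inside hosts, had a peak within 5 kb in 103 of 129 cases (79.84%). Of the 129, 89 lay within 5 kb of a protein-coding end and 84 of these had a peak (94.38%), and 19 of the 40 farther away had one (47.5%), so their share was above that of microRNA genes in both positions.

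Member peaks sat at gene ends more often than other peaks did. A protein-coding gene end lay within 1 kb of 235 of 579 (40.59%), against 17.4% of the other 71433 autosomal peaks. An annotated start window was touched by 179 (30.92%), against 13.6%. These shares are descriptions, since the windows around microRNA genes were not matched for gene density. Most member peaks were beside a hairpin and not over it: 99 touched one, and the median gap was 1736 bp. Of 529 peaks that could be placed upstream or downstream, 303 had their midpoint upstream (57.28%). A total of 45 peaks served more than 1 microRNA gene.

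Widths differed by position. The median width of member peaks was 865 bp (quartiles 486.5 and 1368.5 bp), and that of other autosomal peaks was 592 bp (346 and 1031 bp). At protein-coding ends the medians were 1216 and 1195 bp, and away from them 652 and 520 bp. Peaks over a hairpin had a median of 1409 bp and those beside one 789 bp. Width and contact with a hairpin are not independent measures, since a wider peak touches more ground. The smallest listed width, 200 bp, was found for 21 member peaks (3.627%) and for 6.343% of the others.

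MicroRNA genes known for roles in skin epithelium lay close to accessible regions. Of 26 listed genes, 24 had a peak within 5 kb (92.31%, Wilson 95% interval 75.86 to 97.86%), beside 39.3% of all autosomal microRNA genes. By locus this was 15 of 17, beside 43.8%. Their nearest peak lay a median of 910 bp away, against 8331.5 bp over all. Away from protein-coding ends, 8 of 10 had a peak, beside 24.7%, both counted by gene and not by locus. A peak covered the hairpin of 6 of them (beside 9.72%), and the 37 peaks of the list were 903 bp wide at the median. The genes were listed with earlier results of these data known, and no test was made of the list.

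**Figure D2:**
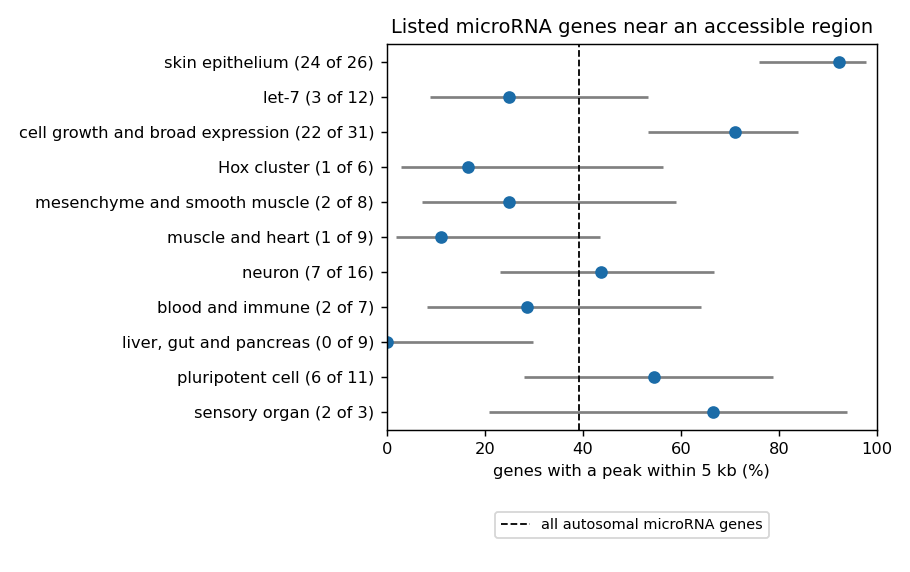
Share of the genes of each list with a peak within 5 kb (%), as points with Wilson 95% intervals, for the 11 lists with at least 3 autosomal genes, with the share over all autosomal microRNA genes as a dashed line at 39.3%. The skin epithelium list (24 of 26) lies farthest above the line and the liver, gut and pancreas list (0 of 9) farthest below it.

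Mir203 and Mir205, the best known microRNA genes of the epidermis and the hair follicle, each had 3 peaks. Mir203 (chr12:112130880-112130955, plus strand) lay in no other annotated gene. A 1862 bp peak covered its hairpin, with an 808 bp peak 4323 bp upstream and a 707 bp peak 2204 bp downstream. Mir205 (chr1:193507463-193507530, minus strand), inside Mir205hg, had a 3661 bp peak 457 bp downstream of the hairpin, a 903 bp peak 588 bp upstream and a 1138 bp peak that covered the Mir205hg start window shown above. The nearest protein-coding gene end, that of Camk1g, lay 137108 bp away.

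Both miR-200 loci were accessible, in different arrangements. Mir200b, Mir200a and Mir429 (chr4:156053905-156055750, minus strand) shared 1 peak of 1714 bp, which lay 2977 bp upstream of Mir200b and covered the Gm13648 start window. Mir200c and Mir141 (chr6:124717914-124718390, minus strand) both lay under a 1780 bp peak, with a 931 bp peak 105 bp downstream of Mir141 and a 1211 bp peak 4895 bp downstream. All 3 peaks lay within 1 kb of a protein-coding gene end. The seeds AAUACUG and AACACUG therefore each had a peak at both of their loci.

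The Mir99, Mir100 and Mir125b genes, which lie together in related clusters, differed among themselves. Mir99a and Mirlet7c-1 on chromosome 16 (chr16:77598936-77599750) had 4 peaks, of 1346, 289, 479 and 1195 bp, and the 479 bp peak covered the Mirlet7c-1 hairpin. Mir125b-2 (chr16:77646273-77646343), farther along the same chromosome, had a 2421 bp peak 863 bp upstream. Mir125b-1 (chr9:41581926-41582002), in Mir100hg, had a 570 bp peak 1641 bp downstream. Mir100 (chr9:41531425-41531504), in the same host, had its nearest peak 15841 bp away. A peak did touch an upstream start window of Mir100hg, whose nearest such start lay 56532 bp from Mir100.

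The widest peaks of the skin list were at the related Mir23, Mir27 and Mir24 clusters. Mir23a, Mir27a and Mir24-2 (chr8:84208518-84208921) lay under a 5786 bp peak, with a 5525 bp peak 3575 bp upstream of Mir23a. The 5786 bp peak also covered a protein-coding gene end. Mir23b, Mir27b and Mir24-1 (chr13:63300484-63301275), inside Aopep, had a 4094 bp peak 1992 bp downstream of Mir24-1. At Mir22 (chr11:75463716-75463810), a microRNA with a known role in hair follicle regression, a 3507 bp peak ended 15 bp upstream of the hairpin and covered the Mir22hg start.

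Mir31 and Mir21a, both known in wound repair, had 5 peaks each, of unlike width. The Mir31 peaks (hairpin at chr4:88910557-88910662, minus strand) were narrow, at 418, 374, 201, 206 and 200 bp. Mir31 lies inside Gm49890, whose nearest upstream start was 31380 bp away, and no peak touched an upstream start window of that host. The Mir21a peaks (chr11:86584067-86584158, minus strand, inside the Vmp1 bounds) were 353, 355, 410, 1638 and 1232 bp. The 1638 bp peak lay 222 bp downstream of the hairpin and 13 bp from a protein-coding gene end. Mir29a and Mir29b-1, which target collagen and other matrix messages, had 4 peaks of 281, 641, 546 and 1328 bp on chromosome 6, and Mir29b-2 and Mir29c on chromosome 1 shared 1 of 428 bp. Mir184 had 1 peak of 1017 bp near the edge of the window. Mir34a, a target of p53, had its nearest peak 6284 bp away.

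**Figure D3:**
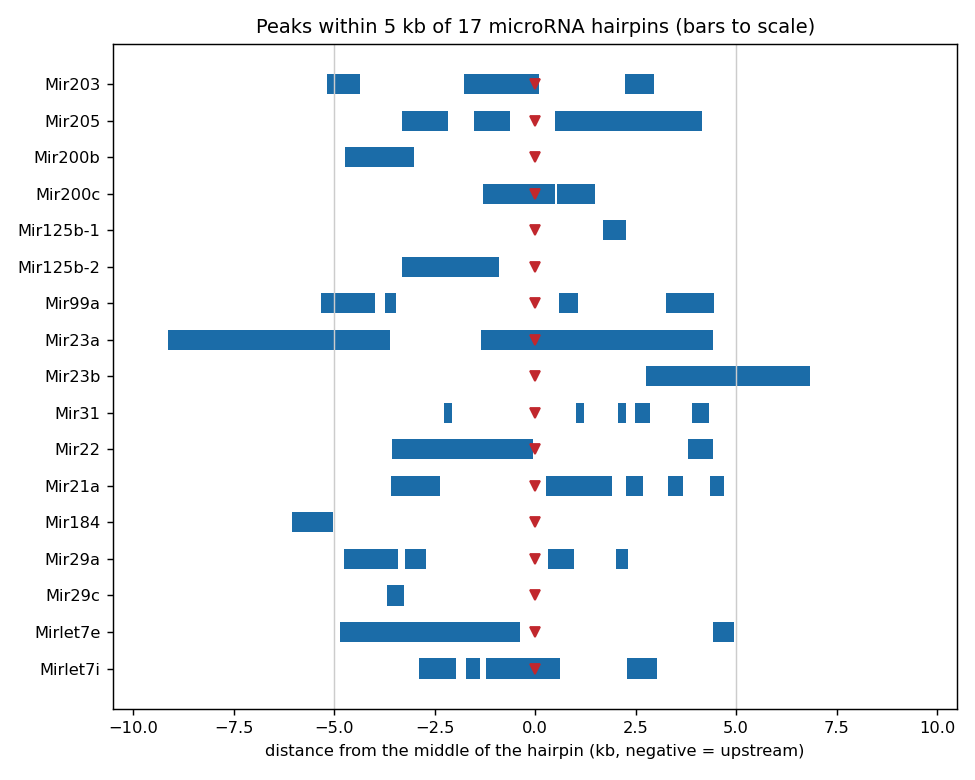
Peaks within 5 kb (blue bars, to scale) at 17 microRNA hairpins (red triangles), by distance from the middle of the hairpin (kb, negative values upstream), with grey lines at 5 kb on either side. Bars cross the hairpins of Mir203, Mir200c, Mir23a and Mirlet7i, and at Mir31 they are 5 narrow bars of 200 to 418 bp.

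The let-7 genes, whose products are known for restraining growth and cell cycle genes, were divided between a few loci with several close peaks and others with none within 5 kb. Of 12 autosomal members, 3 had a peak within 5 kb (25%, 8.894 to 53.23%), beside 39.3% of all. A count of 3 of 12 was also found within 1 kb, beside 18.6% of all, and 9 of 12 within 10 kb, beside 54.2%, so the list was not below the background at either other window. Their nearest peak lay a median of 8138 bp away, against 8331.5 bp over all. Mirlet7i (chr10:122985640-122985724, minus strand) had 4 peaks, of 757, 1836, 369 and 928 bp, and the 1836 bp peak covered its hairpin. Mirlet7e (chr17:17830352-17830444) had a 4487 bp peak 329 bp upstream, shared with Mir99b and Mir125a, and a 511 bp peak. The 4487 bp peak also covered a protein-coding gene end. Mirlet7c-1 had the 4 peaks given above. The other 9 genes, which include Mirlet7a-1, Mirlet7d and Mirlet7f-1 in 1 cluster and Mirlet7b with Mirlet7c-2 in another, had their nearest peak 6897 bp (Mirlet7g) to 92667 bp (Mir7j) away. The GAGGUAG seed, carried by 11 genes with sequence (Mir1961 and 10 of the let-7 list), was near a peak at 3 of its 8 loci.

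Seeds found at several loci mostly had a peak at only some of them. Among 41 seeds found at 3 or more loci, 29 had a peak at some loci and not at others, and 11 had one at none. AGGAGAG, shared by Mir7012, Mir7057, Mir8113 and Mir8119, had one at each of its 4 loci. Of all loci, 43.8% had a peak, and how the split would fall for loci grouped without regard to seed was not tested. The 41 are not separate, since seeds such as GCAGCAU and GCUUCUU come from the same genes, Mir103-1, Mir103-2 and Mir107.

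Genes linked to cell growth and broad expression were also often near peaks. Of 31, 22 had a peak within 5 kb (70.97%, 53.41 to 83.9%), beside 39.3% of all autosomal microRNA genes. By locus this was 13 of 19, beside 43.8%. Away from protein-coding ends 11 of 20 genes had a peak, beside 24.7%, both counted by gene and not by locus. These 11 include the 6 genes of the Mir17 cluster, which share 1 peak, and Mir15b and Mir16-2, which share another. Mir15b and Mir16-2 lay only 5034 and 5164 bp from a protein-coding end, and the peak they share lay at such an end. The Mir17 cluster (chr14:115043671-115044506), whose 6 genes are known for promoting proliferation, had 1 peak of 3180 bp that ended 443 bp upstream of Mir17. Mir106b, Mir93 and Mir25, the related cluster inside Mcm7, had a 710 bp peak downstream and Mir106b also a 1747 bp peak 4979 bp upstream, both at gene ends. Mir191, inside Dalrd3, lay under a 1798 bp peak at a gene end, and Mir320, Mir423 and Mir484 under peaks of 1165, 722 and 1324 bp at gene ends. Mir15b and Mir16-2, inside Smc4, had a 2773 bp peak at a gene end, 3054 bp upstream of Mir15b. The paralogous Mir15a and Mir16-1 had their nearest peak 16226 and 16364 bp away. Mir103-1, Mir103-2 and Mir107, inside Pank3, Pank2 and Pank1, had theirs 11827, 16578 and 5506 bp away.

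For 535 microRNA genes the table gave a host start on the same strand, which for 377 lay over 5 kb upstream. Among these 377, a peak touched an upstream start window of a host for 85 of 109 genes with a peak within 5 kb (77.98%, 69.32 to 84.73%). The same held for 187 of 268 without one (69.78%, 64.03 to 74.96%), beside 43.5% of all autosomal genes with a start window. The 158 genes with a nearer host start were left out, because a peak over such a start can itself be the peak within 5 kb. Mir103-1, Mir103-2, Mir107, Mir15a and Mir16-1 are among those with a peak at a host start window and no peak within 5 kb. The unit was the microRNA gene, so clustered genes in the same host, such as Mir15a and Mir16-1 in Dleu2, repeat its start. The 43.5% does not repeat genes in this way. The intervals make no allowance for the repeats, so the shares are not like for like.

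Lists of other tissues lay on both sides of the 39.3% of all autosomal microRNA genes, and most are too short to set apart from it. Shares were below it for liver, gut and pancreas, muscle and heart, mesenchyme and smooth muscle, blood and immune cells, and Hox clusters. Those for neurons, pluripotent cells and sensory organs, given in the next paragraph, were above it. For liver, gut and pancreas the count was 0 of 9, with a Wilson upper limit of 29.91% and the nearest peak 11199 to 54743 bp away, and it was 0 of 9 within 10 kb too. The intervals of the others include 39.3%. Counts were 1 of 9 for muscle and heart (Mir206, a 200 bp peak, upper limit 43.5%) and 2 of 8 for mesenchyme and smooth muscle (Mir145a and Mir199b, 59.07%). For blood and immune cells the count was 2 of 7 (Mir150 and Mir146b, 64.11%) and for Hox clusters 1 of 6 (Mir615, 56.35%). Within 10 kb the blood and immune count was 5 of 7, beside 54.2% of all. Mir142, Mir144 and Mir451a, abundant in blood cells, had none within 5 kb, and their nearest peaks lay 6690, 7155 and 6984 bp away. Mir155 and Mir146 had theirs 10228 and 10445 bp away. The lists of melanocytes and endothelium hold 1 gene each, with a peak. The melanocyte gene Mir211 had a 928 bp peak 3477 bp upstream, and the endothelial gene Mir126a a 741 bp peak 4832 bp upstream. Their part in any other result was not tested.

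Of the neuron list, 7 of 16 genes had a peak within 5 kb (43.75%, 23.1 to 66.82%), beside 39.3%. Within 1 kb it was 6 of 16, beside 18.6% of all, and within 10 kb 9 of 16, beside 54.2%. Mir132 and Mir212, which respond to neuronal activity but are also made in other tissues, both lay under a 1219 bp peak, and Mir132 had 3 peaks in all. Mir124a-3, Mir129-1, Mir129-2, Mir138-2 and Mir9-2 also had peaks, the last a 200 bp peak 159 bp upstream. Mir124a-1, Mir124a-2, Mir9-1, Mir9-3, Mir137, Mir128-1, Mir128-2, Mir138-1 and Mir153 had none within 5 kb. For pluripotent cells, 6 of 11 genes had a peak, but all 6 are Mir290a to Mir295, which share 1 peak of 312 bp, and the genes of the Mir302 and Mir367 cluster had their nearest peak 6552 to 7058 bp away. At the sensory organ cluster, Mir183 and Mir96 shared a 3090 bp peak over the Mirc35hg start, and Mir182 lay 6721 bp from it.

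The 5 largest microRNA clusters fell into 2 kinds. In 3 of them, 1 of 126 genes had a peak within 5 kb, and in the other 2, Mir290a to Mir295 and Mir17, a single peak lay near every gene, 15 of 15. The locus with most genes, of the Mir466, Mir467, Mir669 and Mir297 families (71 genes, chr2:10466663-10518279) had 0 peaks. The Mir770 to Mir136 locus (16 genes, chr12:109563692-109595397), whose first gene, Mir770, lies in Meg3, also had 0. The neighbouring Mir379 to Mir410 locus (39 genes, chr12:109709060-109747960), part of the same imprinted domain, had 1 peak, of 716 bp, near 1 gene. Outside the 5 loci, 412 of 949 genes had a peak (43.41%).

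At the other end, 4 loci had 5 member peaks and 14 had 4 or more. Mir21a and Mir31 are described above. Mir6924 (chr11:69882032-69882094), inside Acap1, and the locus of Mir193b and Mir365-1 (chr16:13449523-13453926) also had 5, and a 200 bp peak touched the Mir365-1 hairpin. With 4 peaks were Mir1893, Mir5123, Mirlet7i, Mir1895, Mir6546, Mir130a, the Mir99a and Mirlet7c-1 locus, the Mir29a and Mir29b-1 locus, Mir6991 and Mir466f-4. Among these 14 loci, the hairpins of Mir365-1, Mir1893, Mirlet7i, Mir1895, Mir6546 and Mirlet7c-1 lay under a peak.

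The widest members were of 2 kinds. A 38484 bp peak 258 bp from Mir101c (chr9:2999928-3038411) is the first peak on its chromosome and the second widest of the autosomes, and a 26610 bp peak over Mir1938 (chr12:40198161-40224770) lies at Ifrd1. Autosomal peaks over 20 kb number 4. No peak was filtered here, and whether such wide peaks are mapping artefacts was not tested. The next were the 2 at Mir23a, at 5786 and 5525 bp, then 5510 bp over Mir3109 in Anxa2, 5482 bp over Mir6935 in Actg1, 4583 bp near Mir1953, 4487 bp near Mir99b, 4371 bp over Mir7048 in Dedd2 and 4094 bp at the Mir23b cluster.

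Base composition moved with position. Hairpins under a peak had a median GC content of 61.1% (sequence for 96 of 106) and those with a peak beside them 52.7% (267 of 322). Of the first group 83 of 106 lay within 5 kb of a protein-coding end and of the second 171 of 322, and beyond 5 kb the medians were 54.12% (19 hairpins) and 50.74% (126 hairpins). No comparison was made with genes without a peak, since sequence was matched for 77.95% of them, under the minimum of 80% set for such a check.

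Start windows under member peaks held sequence motifs about as often as other windows. There were 248 such windows, of 211 genes, searched on both strands. The forkhead core TGTTTAC was in 8 (3.226%), in 2.628% of the other open windows and in 3.711% of all 31396 autosomal windows. The AP-1 motif TGANTCA, which is its own reverse complement, was in 16 (6.452%), in 5.934% of the other open windows and in 7.845% of all. Among the 16 is the Mirc35hg window shown above, with the match beginning at position -121 when the start base is counted as 0. The Mir205hg and Gm13648 windows held neither motif. A match is a run of letters and says nothing of binding.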

How the data were processed

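The authors deposited 1 list of region coordinates (chromosome, start, end) for the whole series, with no score, depth or read total. The submitters' processing notes name mm10, Bowtie2, MACS2 and bedtools. Tool versions, read filters, offsets for Tn5 and whether both genotypes were pooled before calling were not given in the sources used here. Starts were converted to 1-based positions and no peak was filtered.

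Gene positions, start windows and microRNA sequences came from RefSeq tables of assembly GRCm38.p6, matched by symbol (140 of 141 listed symbols on the autosomes, 3 through synonyms). They hold no exons, so positions are given as inside or outside gene bounds. Peaks and genes were joined where they shared at least 1 base, with pandas 2.3.3 and NumPy 2.4.6, and the join was checked on simulated intervals. A gene end is within 1 kb of either bound of a protein-coding gene. A start window counts as open, or under a peak, where it shares at least 1 base with one. Shares have Wilson 95% intervals for counting error. No test was made: there are no replicates and no genotype values. The members and the 13 lists were chosen with earlier results of these data known. Named genes were the list members, the 10 loci with most peaks (ties at 4 peaks included), the 10 widest peaks and the 5 largest loci. The marker genes of the label check and the AGGAGAG genes were chosen after the data were seen. Alternatives changed the window, the overlap rule, the unit of counting and the peaks kept.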

Additional observations from a re-analysis of the deposited data

How the results depend on the processing

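The size of the window set the counts. With 1 kb in place of 5 kb around a microRNA gene there were 212 peaks, 203 genes with a peak, 14 skin epithelium genes with a peak and a median width of 1003 bp. With 10 kb there were 1003 peaks, 591 genes, 25 skin epithelium genes and a median width of 838 bp. Among genes over 5 kb from protein-coding ends, 174 had a peak, and member peaks away from those ends had a median width of 652 bp. Counted by locus, 376 loci and 15 skin epithelium loci had a peak. The share of member peaks at a protein-coding end was 49.57% within 2.5 kb of an end (other peaks 22.77%) and 36.44% by midpoint (15.47%). Counting a peak by its midpoint, leaving out the 200 bp peaks or leaving out the 2 widest peaks gave 411, 419 and 427 genes with a peak, and leaving out the 5 largest loci gave 412. The last 2 were added after seeing the data. Whole hairpins inside a peak numbered 99. No paired analysis was possible because the list holds no value for any sample. Depth is unknown, so a locus with no listed peak cannot be told from one missed at low depth.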

Other observations

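MicroRNA genes of the X chromosome, which the selection leaves out, had fewer peaks nearby. Of 90 genes, 14 had a peak within 5 kb (15.56%, Wilson 95% interval 9.498 to 24.43%), beside 39.3% on the autosomes. There were 13 peaks in all. A low share was not particular to this chromosome: it was 20.69% on chromosome 2 and 19.15% on chromosome 12. Those 2 autosomes hold the large clusters with few or no peaks. The X chromosome was counted by gene only, so its clusters without a peak also weigh on its share. Mir221 and Mir222, a pair known for promoting proliferation, had 3 peaks each within 5 kb, and a peak covered the Mir221 hairpin. The cluster of Mir106a, Mir18b, Mir20b, Mir19b-2, Mir92-2 and Mir363, related in sequence to the Mir17 cluster, had its nearest peak 127247 to 128057 bp away.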
